A study of Rattus norvegicus with 119 samples.

Results

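A set of 8 genes that act in mitosis was followed through every RNA measurement made on the urethra of newborn female rats. They were Cenpa (ENSRNOG00000032178), Cenpf (ENSRNOG00000003388), Ckap2 (ENSRNOG00000024650), Kif20b (ENSRNOG00000018929), Kif23 (ENSRNOG00000014080), Cdc20 (ENSRNOG00000028415), Cdca2 (ENSRNOG00000025302) and G2e3 (ENSRNOG00000004232), and they were taken by these identifiers, as 8 of the 32662 genes in the count tables. The tissues were the ventral mesenchymal pad (VMP), a strip of mesenchyme on the female urethra that corresponds to inductive mesenchyme of the prostate, and the adjacent urethra (SU), which holds smooth muscle, peri-urethral stroma and urethral epithelium. Both were microdissected from Wistar pups on postnatal day 0, without any treatment, and tissue of many animals was pooled. Tag-seq was carried out on the tissue pools, RNA-seq on cells released from such pools with collagenase, and sequencing of single cells (scRNA-seq) after capture of such cells on a Fluidigm C1 chip. Both bulk assays had 1 library per tissue, and the labels gave 49 VMP cells and 66 SU cells. Cells of 1 pool are not replicates of a tissue, so no test between the tissues was made on cells. Intervals on counts cover the counting of reads and intervals on shares cover the sampling of cells from a pool, and neither holds the spread between pools.

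Genes of this kind are transcribed mainly between the end of DNA replication and the end of cell division, and many are switched off in resting cells. Cenpa is the histone variant that marks the centromere, and Cenpf is a large coiled-coil protein of the kinetochore, which links chromosomes to the spindle. Ckap2 binds and stabilises spindle microtubules, while Kif20b and Kif23 are kinesin motors of late mitosis, Kif23 being part of the centralspindlin complex of the spindle midzone. Cdc20 activates the anaphase-promoting complex, the ubiquitin ligase that starts the separation of sister chromatids. Cdca2 (Repo-Man) brings protein phosphatase to chromosomes at the exit from mitosis, and G2e3 is a ubiquitin ligase named for its expression in G2/M phase. In newborn urethral mesenchyme, transcripts of such genes are commonly read as a sign of dividing cells.

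The way in which the identifiers were named limits what the bulk counts can show. Symbols were paired with identifiers only through the study's tables of differentially expressed (DE) transcripts, so each gene had been called in at least 1 bulk assay to be found. Ckap2, Kif23 and Cdc20 came from the Tag-seq table, and the other 5 genes came from the RNA-seq table. Calls of a gene in the assay that named it are therefore given as a description. The G2/M phase list used to place them holds 54 genes, and only these 8 of it could be named.

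Depth in Tag-seq was 7870450 counts for VMP and 8215177 for SU, in RNA-seq 4397699 and 7007767, and in a single cell between 199849 and 1488320. Median depth was alike in the cells of both tissues, with 614376 counts and 5545 genes in VMP cells and 631066 counts and 6183 genes in SU cells. All 49 VMP cells and all 66 SU cells correlated more with the mean profile of their own tissue than with that of the other over 10143 genes, with the mitotic genes and the cell itself left out. The narrowest margin was that of VMP cell 38, with r of 0.576 against both means. The study's methods count 3 more VMP cells and 3 fewer SU cells than the labels, and the labels were followed. After quality control the study analysed fewer SU cells than the labels give, so some cells used here were not in its own analysis. No cell column was identical to another, and 33 chip positions occurred in both tissues. Markers of other cell types differed between the bulk libraries. The 16 of 18 epithelial markers that could be matched summed in Tag-seq to 613 CPM (counts scaled to the library total) in the VMP library and 9879 CPM in the SU library, with 16 of 16 higher in SU, and in RNA-seq to 27.1 and 262 CPM, with 12 of 16 higher in SU and 9 at 0 in VMP. The 10 of 11 skeletal muscle markers summed to 1170 and 5770 CPM in Tag-seq, and RNA-seq gave 51.6 and 334 CPM, with 10 of 10 higher in SU in both. The 8 of 10 mesenchymal markers went opposite ways in the assays. They summed to 46076 CPM (VMP) and 23107 CPM (SU) in Tag-seq, with 2 of 8 higher in SU, and to 22042 and 50267 CPM in RNA-seq, with 7 of 8 higher in SU. The part of these markers in the bulk values of the mitotic genes was not tested. In the single cells the epithelial markers were near 0, with a median sum of 2.89 CPM (range 0 to 269) in VMP cells and 1.49 CPM (0 to 133) in SU cells, while the mesenchymal markers were present in every cell, with a median sum of 10715 CPM (3701 to 26323) in VMP cells and 29887 CPM (5156 to 60966) in SU cells. They were thus higher in SU cells, as the mitotic genes were, and their part in that difference was not tested. Of the 16 epithelial markers, 6 had no read in any cell, Cdh1 among them, and 13 in VMP and 12 in SU reached 10 reads in no cell.

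The promoters of 7 of the genes were read from RefSeq (GRCr8), from 250 bases before to 50 bases after each start. They were searched on both strands for TTTGAA and TTTAAA, the usual forms of the cell cycle genes homology region (CHR) that late cell cycle genes often carry, and for CCAAT, the box bound by NF-Y. TTTGAA was found in all 7 promoters, in the direction of the gene each time, while 18.35% of 33469 rat promoters of the same length hold it on either strand and 10.05% hold it in the direction of the gene. CCAAT was in 6 of the 7, all but that of G2e3, against 37.49% of all promoters, and TTTAAA was in 2, those of Cenpa and Cenpf, against 13.62%. None of the matches to different motifs overlapped. The windows around TTTGAA are shown because this short element is what the promoters share, with the element in capitals and the gene's own strand written 5′ to 3′.
Cenpa (chr6:31431639-31431692, minus strand): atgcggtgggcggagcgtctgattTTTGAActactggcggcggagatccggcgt
Cenpf (chr13:103760855-103760908, minus strand): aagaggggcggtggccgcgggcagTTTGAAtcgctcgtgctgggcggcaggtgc
Ckap2 (chr16:76541964-76542017, plus strand): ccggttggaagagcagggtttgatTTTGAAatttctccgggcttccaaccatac
Kif20b (chr1:241840993-241841046, plus strand): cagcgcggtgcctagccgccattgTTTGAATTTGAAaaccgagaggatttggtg
Kif23 (chr8:71320634-71320687, minus strand): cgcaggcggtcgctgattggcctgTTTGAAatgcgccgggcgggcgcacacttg
Cdc20 (chr5:137255821-137255874, minus strand): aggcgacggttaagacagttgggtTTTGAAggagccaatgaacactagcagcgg
G2e3 (chr6:74499491-74499544, plus strand): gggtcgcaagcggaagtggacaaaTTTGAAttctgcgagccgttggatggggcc
The element began 51 bases before the start in Cdc20, 71 in G2e3, 79 in Kif23, 116 in Cenpa and 126 in Ckap2. In Cenpf it began at base 2 after the start. Kif20b held it 3 times, 116 bases before the start and as the tandem pair at the start that is printed. A match describes the letters only, and no binding was measured.

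In Tag-seq of the tissues, Cdc20 and Kif23 were higher in SU, Ckap2 was higher in VMP, and the other 5 genes were not called. Tag-seq counts 1 short tag at a fixed cutting site per transcript. Its counts do not grow with transcript length, but they need not rank different genes by abundance. In SU by Tag-seq, Kif23 lay far below Cdc20, at 26.3 against 223 CPM. By RNA-seq the same genes were level in SU, at 110 and 111 CPM. The reason for this was not tested. Cdc20 had the highest Tag-seq count of the 8 genes in SU. It had 759 counts in VMP (96.4 CPM, 95% exact Poisson interval 89.7 to 104) and 1834 counts in SU (223 CPM, 213 to 234), 2.50-fold higher in SU. Kif23 had 74 counts in VMP (9.40 CPM, 7.38 to 11.8) and 216 in SU (26.3 CPM, 22.9 to 30.0), 3.01-fold higher in SU. Ckap2 went the other way, with 1185 counts in VMP (151 CPM, 142 to 159) and 480 in SU (58.4 CPM, 53.3 to 63.9), 2.38-fold higher in VMP. RefSeq lists pseudogene copies of Ckap2 in the rat, which leaves its count uncertain. Whether reads were shared with or lost to near-identical copies was not tested. Calls were made with the NOISeq scheme for 1 library per group, in which q ranks a transcript against simulated technical noise and is not a p-value, at q of at least 0.9. The q was 0.912 for Ckap2, 0.917 for Cdc20 and 0.939 for Kif23, all near the limit. Of 12191 transcripts tested, 12.9% were called higher in SU and 8.76% higher in VMP. In bulk libraries, fewer cells of a type and less RNA per cell cannot be told apart.

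The other 5 genes were not called in the tissue. Cenpf had 599 counts in VMP (76.1 CPM, 70.1 to 82.5) and 1063 in SU (129 CPM, 122 to 137), with a log2 ratio (VMP over SU, as in all ratios given here) of -0.88 and a 95% counting interval from -1.02 to -0.73, at q of 0.825, under the limit. Cenpa had the ratio furthest from 0 of the 8 genes, a log2 ratio of -2.10 (-4.71 to -0.43), but on 3 counts in VMP and 14 in SU. Kif20b, Cdca2 and G2e3 were alike in both tissues within counting error. Kif20b had 162 counts in VMP and 182 in SU, a log2 ratio of -0.22 (-0.53 to 0.10). Cdca2 had 127 and 135 counts, a log2 ratio of -0.14 (-0.50 to 0.22), and G2e3 had 234 and 241, a log2 ratio of -0.09 (-0.36 to 0.17). The median log2 ratio of the 8 genes was -0.55, beside 0.01 over all 12191 transcripts tested, and 7 of the 8 ratios were below 0, beside 49.8% of all transcripts, with 3 of the 8 named through calls in this assay.

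**Figure D1:**
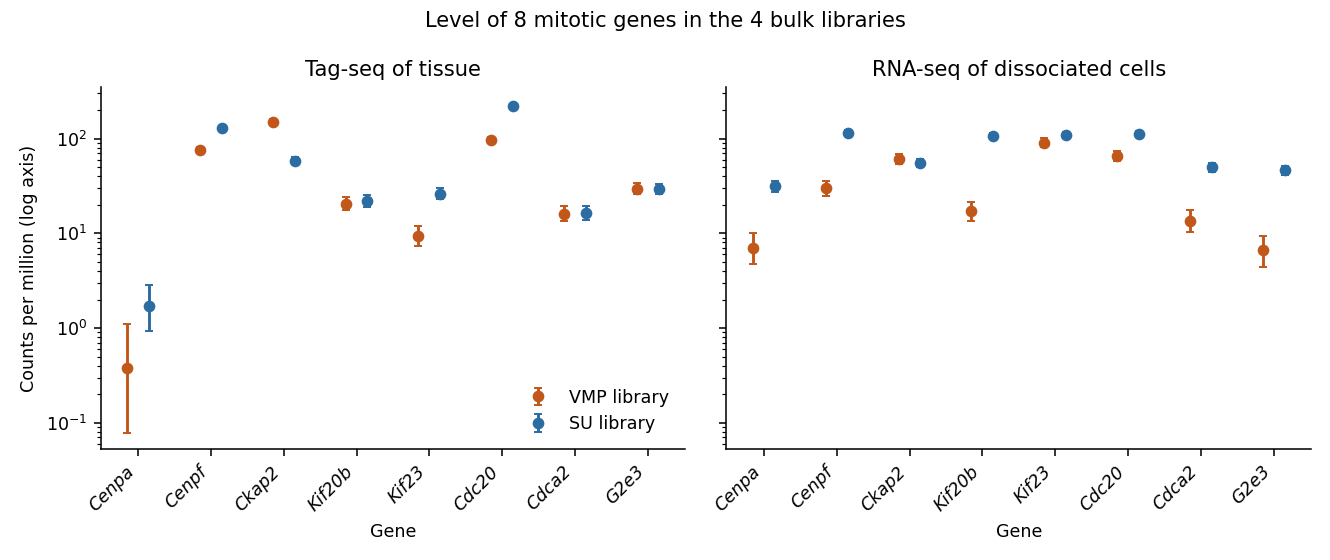
CPM of each gene (log axis) in the VMP and SU libraries of Tag-seq (left) and RNA-seq (right), with bars for 95% exact Poisson intervals. In Tag-seq, Ckap2 sits higher in VMP (151 against 58.4 CPM) and Cdc20 in SU (223 against 96.4 CPM), while in RNA-seq Cenpa, Cenpf, Kif20b, Cdca2 and G2e3 lie far lower in VMP.

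In RNA-seq of the dissociated cells the called genes were the other ones. Cenpa, Cenpf, Kif20b, Cdca2 and G2e3 were higher in SU, and Ckap2, Kif23 and Cdc20 were not called, so that no gene was called in both assays. G2e3 had 29 counts in VMP (6.59 CPM, 4.42 to 9.47) and 326 in SU (46.5 CPM, 41.6 to 51.9), 8.02-fold higher in SU. Kif20b had 76 counts in VMP (17.3 CPM, 13.6 to 21.6) and 755 in SU (108 CPM, 100 to 116), 7.16-fold higher. These were the largest ratios of the 8 in this assay, in 2 genes whose Tag-seq counts were alike. Cenpa, with 31 counts in VMP and 221 in SU, was 5.10-fold higher in SU, Cenpf, with 131 and 805, was 4.44-fold higher, and Cdca2, with 60 and 350, was 4.20-fold higher. The 3 genes named through Tag-seq had the smallest ratios. Cdc20 had 287 counts in VMP (65.3 CPM) and 781 in SU (111 CPM), a log2 ratio of -0.98 (-1.18 to -0.78) with q of 0.825. Kif23 had 400 and 773 counts, a log2 ratio of -0.49 (-0.66 to -0.31). Ckap2 had 268 counts in VMP (60.9 CPM, 53.9 to 68.7) and 386 in SU (55.1 CPM, 49.7 to 60.9), a log2 ratio of -0.06 (-0.29 to 0.17) that turned to 0.15 under scaling by total count. Of 17527 transcripts tested, 10.7% were called higher in SU and 9.33% higher in VMP, and none of the 8 genes was called higher in VMP. The median log2 ratio of the 8 genes was -2.11, beside 0.03 over all transcripts tested, and since 5 of the 8 could be named only through calls in this assay, the median is largely fixed by that choice. Scaling by total count moved the median of all transcripts to 0.24 and leaving out normalization moved it to -0.43, and the 5 called genes kept log2 ratios below these medians under each scaling.

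Whether a direction held over tissue and dissociated cells was asked with a fit to all 4 bulk libraries that took the assay as a blocking factor. The fit had no replicate within an assay. Its spread is thus the disagreement between 2 unlike assays, and a high p does not show equal levels. No gene of the 8 passed. With edgeR's quasi-likelihood test the smallest Benjamini-Hochberg adjusted p was 0.439, for Cenpf, at a log2 ratio of -1.50 that was negative in both assays. The same gene had the smallest adjusted p with DESeq2, 0.206. For Ckap2 the adjusted p was 0.907 with edgeR and 0.880 with DESeq2, at log2 ratios of 0.61 with both tools. Before adjustment, p was under 0.05 for 3 of the 8 genes with edgeR (Cenpa, Cenpf and Cdc20) and for 4 with DESeq2. Over all transcripts it was so for 925 of 11273 with edgeR and for 1157 with DESeq2. The 8 genes were named through calls in these same libraries, so these counts cannot be weighed against each other. Of the transcripts tested in both assays, 0.337% (38 of 11273) passed with edgeR as higher in SU and 2.17% (230 of 10617) with DESeq2.

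**Figure D2:**
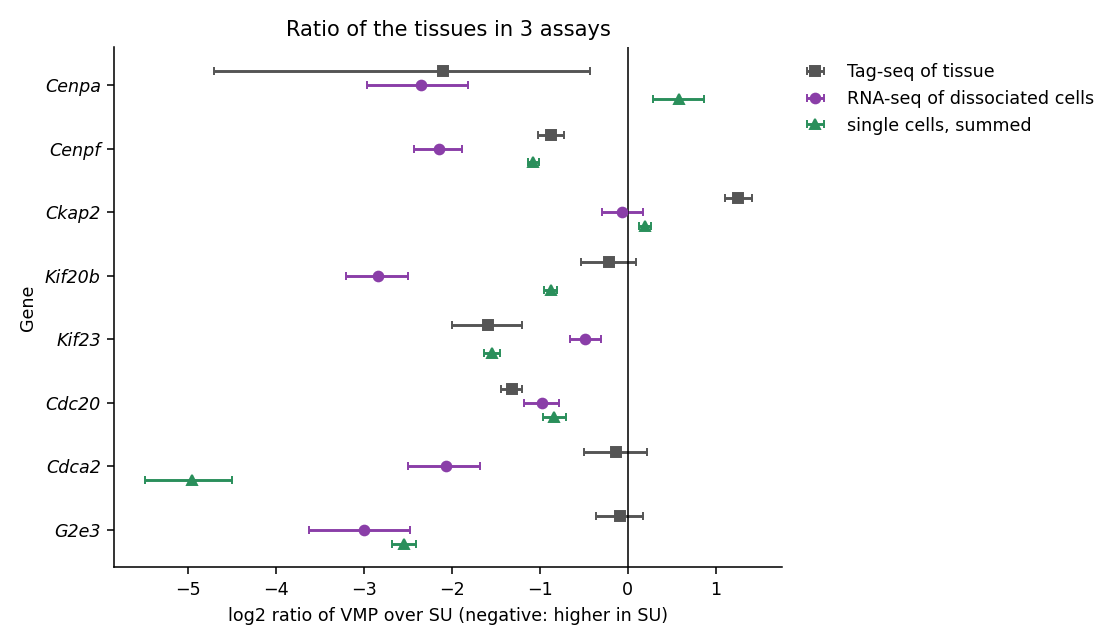
Log2 ratio of VMP over SU for each gene in Tag-seq of tissue, in RNA-seq of dissociated cells and in the counts summed over single cells, with bars for 95% counting intervals and a line at 0. Cdc20, Cenpf and Kif23 lie left of 0 in all 3 assays, and Kif20b, Cdca2 and G2e3 lie near 0 in Tag-seq only. Ckap2 lies right of 0 in Tag-seq and in the summed cells, where its sign depends on which cells are left out.

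In the single cells, each of the 8 genes was detected in a larger share of SU cells than of VMP cells. Of these, 5 were named through RNA-seq calls, where they were higher in SU. The study made that RNA-seq from cells of the suspensions, to set beside the single cells. The direction is therefore not independent of how the genes were named. Among the chromosome-bound proteins, Cenpf had at least 1 read in 24 of 49 VMP cells (49%, exact binomial 95% interval 34.4 to 63.7) and in 59 of 66 SU cells (89.4%, 79.4 to 95.6). Cenpa was detected in 2 VMP cells (4.08%, 0.498 to 14) and 21 SU cells (31.8%, 20.9 to 44.4), and Cdca2 in 4 VMP cells (8.16%, 2.27 to 19.6) and 14 SU cells (21.2%, 12.1 to 33). Of the spindle and midzone genes, Ckap2 differed least, with 24 VMP cells (49%, 34.4 to 63.7) and 45 SU cells (68.2%, 55.6 to 79.1). Kif20b was detected in 21 VMP cells (42.9%, 28.8 to 57.8) and 58 SU cells (87.9%, 77.5 to 94.6), and Kif23 in 12 (24.5%, 13.3 to 38.9) and 51 (77.3%, 65.3 to 86.7). Both kinesins were thus found in most SU cells and a minority of VMP cells. Cdc20 was detected in 7 VMP cells (14.3%, 5.94 to 27.2) and 21 SU cells (31.8%, 20.9 to 44.4), and G2e3 in 8 (16.3%, 7.32 to 29.7) and 52 (78.8%, 67 to 87.9). The share in SU over that in VMP thus ran from 1.39 for Ckap2 to 4.83 for G2e3 and 7.80 for Cenpa, the last on 2 VMP cells. The median share of the 8 genes was 20.4% in VMP and 72.7% in SU. Over the 10150 genes detected in 20 or more cells the median share was 44.9% in VMP and 54.5% in SU, and 62% of these genes were detected in a larger share of SU cells. The 10150 genes hold 7 of the 8, all but Cdca2, which was detected in too few cells. With each cell thinned to 199849 counts, that of the shallowest, which equalises total counts but not the number of genes or the spike-in share, the expected median share of the 8 genes was 13.4% in VMP and 55.7% in SU.

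Most detections in VMP were of a few reads. Of the 24 VMP cells with Cenpf, 15 had 1 read, 4 had 2 to 9 reads, 1 had between 10 and 99 and 4 had 100 or more. Among the 59 SU cells with Cenpf, 21 had 1 to 9 reads, 27 had 10 to 99 and 11 had 100 or more. Weak detection was also frequent in SU for G2e3, where 34 of the 52 cells had fewer than 10 reads and 13 of those had 1, and for Kif23, where 30 of 51 had fewer than 10. The same occurred over the whole table, since a median of 55.3% of the detected genes of a VMP cell and 51.0% of those of an SU cell had 1 to 9 reads. Among epithelial genes, which mesenchymal cells should lack, weak detection ran from none to many cells. Epcam had reads in 5 VMP cells and 8 SU cells and Krt8 in 10 and 0, with 10 reads in none, while Ovol1 had reads in 29 and 33 cells and 10 reads in 1 VMP cell. The reads were counted without molecular identifiers, so 10 reads need not be 10 molecules.

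At 10 or more reads the shares were smaller and remained larger in SU for all 8 genes, beside 64.6% of the 10150 genes. The limit from the naming of the 8 genes through bulk calls holds here too. Cenpf reached 10 reads in 5 VMP cells (10.2%, 3.4 to 22.2) and 38 SU cells (57.6%, 44.8 to 69.7), Kif20b in 6 (12.2%, 4.63 to 24.8) and 28 (42.4%, 30.3 to 55.2), and Kif23 in 3 (6.12%, 1.28 to 16.9) and 21 (31.8%, 20.9 to 44.4). G2e3 did so in 3 VMP cells (6.12%, 1.28 to 16.9) and 18 SU cells (27.3%, 17 to 39.6). Ckap2 reached it in 8 VMP cells (16.3%, 7.32 to 29.7) and 22 SU cells (33.3%, 22.2 to 46.0), the smallest ratio of shares among the genes with 5 or more VMP cells at this limit. Cdc20 and Cdca2 were rare in both tissues, with 2 VMP and 7 SU cells for Cdc20 and 1 VMP and 10 SU cells for Cdca2. Cenpa had 1 VMP cell and 3 SU cells. At this limit the median share of the 8 genes was 6.12% in VMP and 29.5% in SU.

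**Figure D3:**
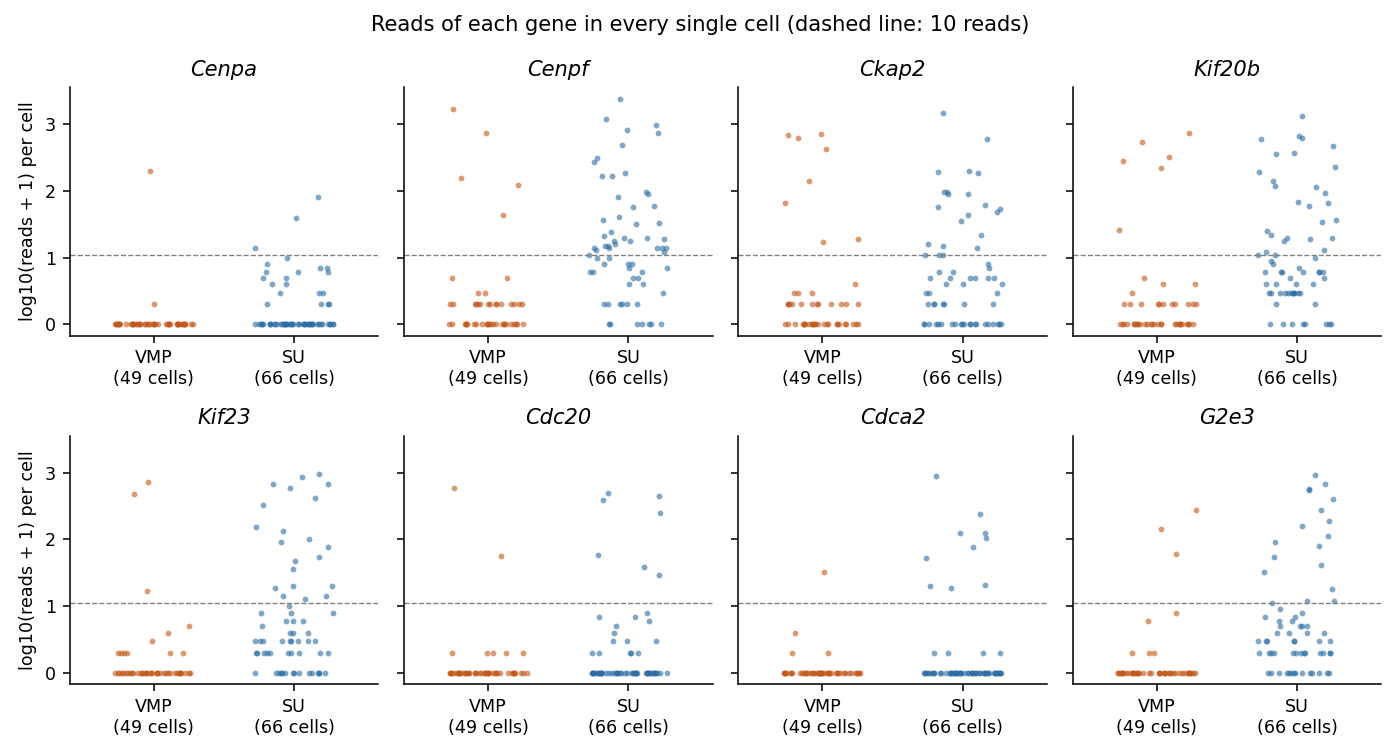
Reads of each gene in every single cell, as log10(reads + 1), for 49 VMP cells and 66 SU cells, with a dashed line at 10 reads. Cenpf lies above the line in 38 SU cells and 5 VMP cells, and most VMP points of all genes lie at 0 or 1 read.

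The genes were co-detected in many SU cells and few VMP cells. These counts depend on the share of each gene given above. The number expected from the separate shares was not computed, so the counts do not show joint detection beyond those shares. At 1 read or more, 4 or more of the 8 genes were found in 6 of 49 VMP cells (12.2%, 4.63 to 24.8) and 58 of 66 SU cells (87.9%, 77.5 to 94.6), and the median number was 2 in VMP and 5 in SU. No gene was found in 5 VMP cells and in 0 of 66 SU cells, which allows a share of up to 4.55% by a limit of 3 cells and 5.44% by the exact interval. All 8 genes were found in 3 SU cells and in 0 of 49 VMP cells, which allows up to 6.12% and 7.25%. When each cell was thinned to the shallowest, 3.12 VMP cells and 39.3 SU cells were expected to show 4 or more. The gap narrowed at 10 reads, where 4 or more genes were found in 2 VMP cells (4.08%, 0.498 to 14) and 15 SU cells (22.7%, 13.3 to 34.7). No gene reached 10 reads in 35 VMP cells (71.4%, 56.7 to 83.4) and 11 SU cells (16.7%, 8.62 to 27.9). At this limit SU cells were found at every number from 0 to 7 genes, so a limit of 4 cuts a range and does not define a cell type, with 10 SU cells at 3 genes and 6 at 4.

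**Figure D4:**
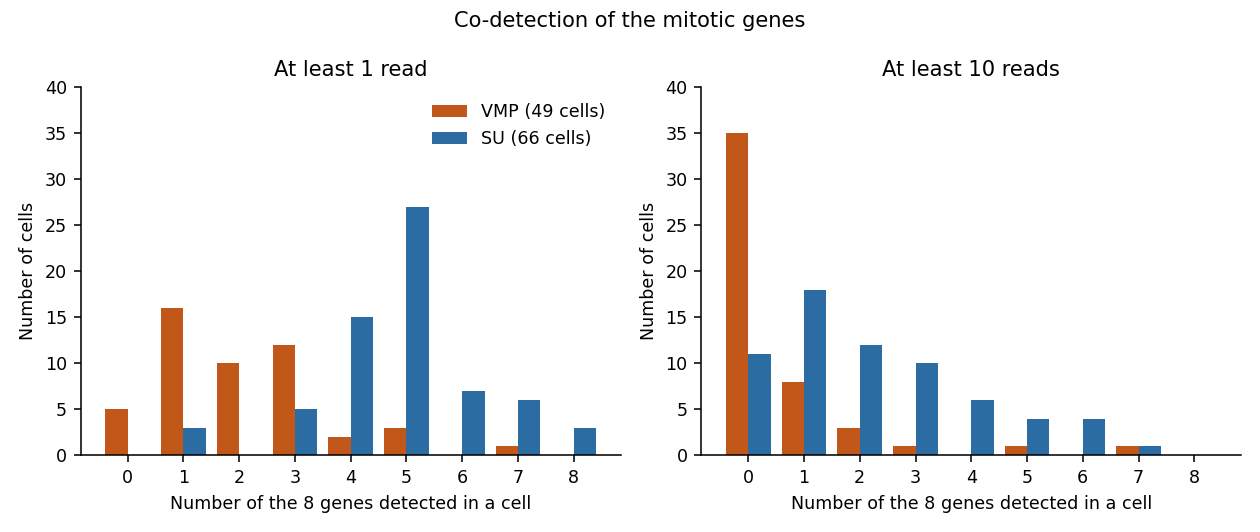
Number of cells with a given number of the 8 genes detected, at 1 read or more (left) and at 10 reads or more (right), for VMP and SU. At 1 read most SU cells hold 4 or 5 genes (15 and 27 cells) and most VMP cells 1 to 3, and at 10 reads 35 VMP cells hold none while 15 SU cells hold 4 or more.

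The cells that carried many of the genes were few. In SU, cell 45 reached 10 reads of 7 genes, with 1329 reads of Kif20b, 898 of Cdca2, 809 of Cenpf, 675 of Kif23, 444 of Cdc20, 56 of Ckap2, 53 of G2e3 and none of Cenpa. SU cell 85 reached it for 6 genes, with 962 reads of Cenpf, 845 of Kif23 and 670 of Kif20b. In VMP, cell 38 reached it for 7 genes, with 1652 reads of Cenpf, 675 of Ckap2, 593 of Cdc20, 480 of Kif23, 324 of Kif20b, 197 of Cenpa, 59 of G2e3 and none of Cdca2. VMP cell 89 reached it for 5, with 736 reads of Cenpf and 725 of Kif23. SU cells 45 and 85 and VMP cell 38 thus held 100 or more reads of several genes at once, and VMP cell 89 only of Cenpf and Kif23. Cell 38 alone held 39.3% of the 10139 reads of the 8 genes in VMP, and the 5 highest VMP cells held 76.3%, while the highest SU cell held 13.8% of 30990 reads and the 5 highest 53.3%. The summed level of the 8 genes had a median of 5.78 CPM per VMP cell (range 0 to 3608) and 160 CPM per SU cell (7.87 to 4091).

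**Figure D5:**
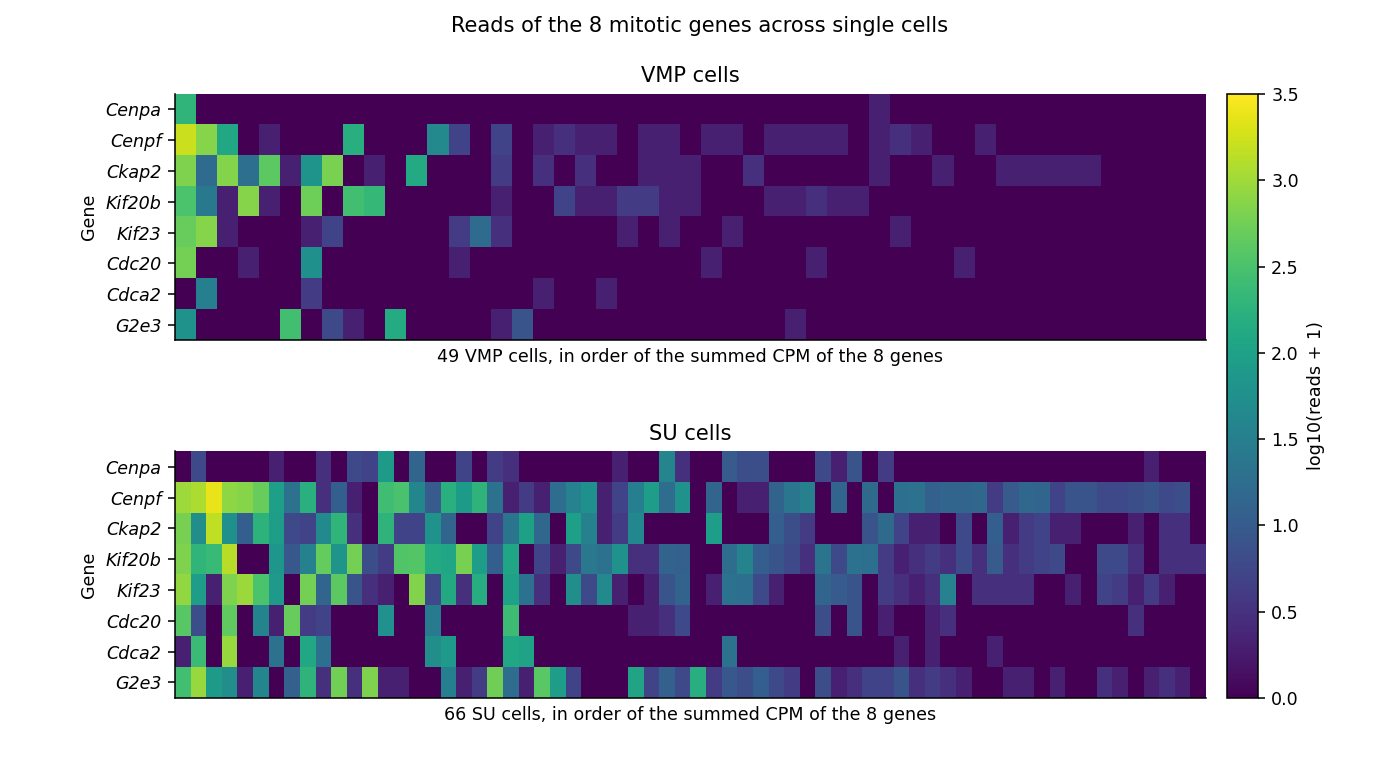
Reads of each gene in each cell as log10(reads + 1), with VMP cells above and SU cells below, each ordered by the summed CPM of the 8 genes. High values of several genes fall together in a few VMP cells on the left and in more of the SU cells, and Cenpf, Kif20b, Kif23 and G2e3 are detected across most SU cells, at 1 to 9 reads in 21, 30, 30 and 34 of them.

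Within SU, cells were split by whether they held 10 reads of 3 or more of the other genes, and for each of the 8 genes the share at 10 reads was larger among those that did. For Cdca2 this was 8 of 23 such cells against 2 of the 43 others, for Cdc20 6 of 24 against 1 of 42, for Kif23 11 of 19 against 10 of 47, and for Ckap2 12 of 20 against 10 of 46. For Cenpf it was 12 of 17 against 26 of 49, the smallest ratio of these shares, and for Cenpa 3 of 25 against 0 of 41. In 11 SU cells Cenpf was the only one of the 8 genes at 10 reads. Of the 10 SU cells with 10 reads of Cdca2, 9 also reached it for Kif20b and 9 for Kif23, and 5 for Cenpf. Over the 28 pairs of genes, Pearson's r of log2(CPM + 1) had a median of 0.23 over the 66 SU cells (range -0.17 for Cenpa with Cenpf to 0.47 for Kif23 with Cdca2) and 0.34 over the 49 VMP cells (-0.10 to 0.78), and 26 pairs were positive in each tissue. These are descriptions over cells of 1 pool that share a library preparation, and cell 38 weighs in most VMP pairs. Depth moved with co-detection at 10 reads. The 15 SU cells with 4 or more genes had a median of 820848 counts, 6780 genes and 7.0% spike-in, and the other 51 had 608485 counts, 6145 genes and 13.1%. The part of depth in this difference was not tested. Epithelial markers did not move with it, at a median of 1.6 CPM in the 15 cells and 1.2 CPM in the 51. The medians of skeletal muscle markers were 23.9 and 15.6 CPM, and those of mesenchymal markers 27376.5 and 31248.8 CPM, all with wide ranges.

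Summed over all cells, 6 of the 8 genes were higher in SU and 2 were higher in VMP. Cdca2 had the largest ratio, with 36 reads in VMP and 1679 in SU, a log2 ratio of -4.96 (95% counting interval -5.49 to -4.50), and G2e3 followed with 490 and 4252 reads, -2.55 (-2.69 to -2.41). Kif23 had 1236 and 5338 reads, -1.54 (-1.63 to -1.45), Cenpf 2735 and 8544, -1.07 (-1.14 to -1.01), Kif20b 2124 and 5790, -0.88 (-0.95 to -0.81), and Cdc20 654 and 1735, -0.84 (-0.97 to -0.71). Ckap2 and Cenpa had ratios above 0. Ckap2 had 2666 reads in VMP and 3455 in SU, a log2 ratio of 0.19 (0.12 to 0.27), and Cenpa had 198 and 197, a log2 ratio of 0.58 (0.28 to 0.87). The sign of Cenpa rested on VMP cell 38, which held 197 of its 198 VMP reads. That of Ckap2 depended on which cells were left out. Its log2 ratio was -0.17 without VMP cell 38 and 0.54 without the cell with the most reads in each tissue. SU cell 93 held 42.7% of the SU reads of Ckap2. Without VMP cell 38, the ratio of Cenpa rested on 1 VMP read. Cdc20 then went from 654 to 61 VMP reads and to a log2 ratio of -4.20. Counting intervals do not hold this spread between cells, which is the larger one here. The median of the 8 ratios was -0.98, beside 0.10 over the 10150 genes. Of the 8, 4 were more than 2-fold higher in SU, beside 19.4% of those genes. Since the 8 genes were named through bulk calls, these values are not independent of that choice.

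Across the 3 assays, Cenpf, Cdc20 and Kif23 had intervals below 0 throughout. Cenpf was named through calls in RNA-seq, and Cdc20 and Kif23 through calls in Tag-seq, so the direction in that assay was fixed by the naming. The intervals cover counting only and leave out the spread between cells in the summed counts. Cenpf had log2 ratios of -0.88 in Tag-seq, -2.15 in RNA-seq and -1.07 in the summed cells, Cdc20 had -1.32, -0.98 and -0.84, and Kif23 had -1.59, -0.49 and -1.54. For Kif20b, Cdca2 and G2e3 the tissue showed no difference beyond counting error, and both measurements of dissociated cells were lower in VMP, with -2.84 and -0.88 for Kif20b, -2.07 and -4.96 for Cdca2, and -3.0 and -2.55 for G2e3. Kif20b, Cdca2 and G2e3 were named through calls in RNA-seq and not in Tag-seq, so this contrast is in part fixed by that choice. The assays also differ in chemistry, in the part of the transcript read and in the removal of epithelium by dissociation. Which of these goes with the difference was not tested.

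Of the cell cycle lists, 9 further genes had a symbol paired with an identifier, too few for any count over a list. In the centromere and kinetochore list of 30 genes, Cenpu, a protein of the inner kinetochore, was called higher in SU in both assays, with 34 and 188 counts in Tag-seq and 20 and 158 in RNA-seq, and it had reads in 6 VMP and 40 SU cells. Spc25, a subunit of the NDC80 complex, was called higher in SU in RNA-seq only, with 68 and 348 counts, and had reads in 6 VMP and 36 SU cells. Cenpb, which binds centromeric repeats, was higher in VMP in Tag-seq, with 192 and 51 counts, and was not called in RNA-seq. Of the cytokinesis list, Prc1, a microtubule bundling protein of the midzone, had 39 and 47 counts in Tag-seq and 326 and 1410 in RNA-seq, where it was called higher in SU. Anapc11 and Cdc26, subunits of the complex that Cdc20 activates, had opposite calls in Tag-seq, with 3816 and 9651 counts for Anapc11 and 1048 and 450 for Cdc26. Neither was called in RNA-seq. Summed over single cells both were higher in VMP, with log2 ratios of 0.87 for Anapc11 and 0.97 for Cdc26. Anapc11 had reads in 49 VMP and 60 SU cells, and Cdc26 in 16 and 40. Of 43 genes of S phase, Rrm1, a subunit of ribonucleotide reductase, Usp1, a deubiquitinase of DNA repair, and Cenpu were named. All 3 were called higher in SU in Tag-seq. In RNA-seq, Usp1 and Cenpu were called higher in SU and Rrm1 was not called. Summed over single cells, the log2 ratio was 0.22 for Usp1, -0.73 for Rrm1 and -3.61 for Cenpu. Cdkn1a, an inhibitor of cyclin-dependent kinases and so no sign of division, was called higher in SU too, with 370 and 990 counts in Tag-seq and 7 and 48 in RNA-seq. All 9 genes were found through the DE tables and hence chosen by calls in these libraries.

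The genes most like the mitotic genes in the single cells were sought by the correlation of log2(CPM + 1) with their mean over all 115 cells, among 10143 other genes. The 10 highest had r from 0.66 to 0.76, beside a median of 0.06 over all genes, and 2 of the 10 could be named. They were Prc1 (r of 0.68 over all cells, 0.63 over VMP cells and 0.59 over SU cells) and Knstrn, a protein of spindle and kinetochore (0.66, 0.80 and 0.55). Knstrn had reads in 7 VMP and 38 SU cells, and 10 reads in 3 and 15. The highest r, 0.76, belonged to ENSRNOG00000028137, with reads in 19 VMP and 64 SU cells. Further down the ranking, and chosen after their values were seen, stood other genes of the cell cycle that could be named. They were Plk4 (rank 15, r of 0.64), Spc25 (rank 28), Trip13 (rank 35), Esco2 (rank 51) and Mastl (rank 53), among others. Named genes of other kinds stood between these, namely Il13ra2 (rank 42), Wnt5a (rank 44), Mfap5 (rank 46) and Mme (rank 47). The correlation over both tissues also holds the difference between them. An example is Wnt5a, a secreted Wnt ligand at rank 44, with r of 0.52 over all cells and 0.04 within SU.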

How the data were processed

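The deposited tables hold unnormalized read counts for each Ensembl gene (Rnor_6.0), as the authors made them. For Tag-seq the authors trimmed reads to the tag, aligned them with Bowtie2 and kept unique alignments. For single cells they used Trimmomatic 0.33 and TopHat and removed amplification duplicates with Picard 1.128. The alignment of the bulk RNA-seq is not given in the sources used here. The counter is summarizeOverlaps in the methods and HTSeq in the submitters' processing notes. The cells per RNA-seq pool are given differently in the results and the methods of the study. Spike-in rows stayed out of library sizes.

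The NOISeq scheme was rebuilt in R 4.3.3 on whole tables. TMM scaling, a limit of CPM over 1 (here in either library) and calls from a q of 0.9 follow the study's methods. The scheme took 5 simulated replicates of each tissue (20% of depth, variability 0.02) and 0.5 in place of 0. A figure legend of the study also sets a limit on the size of the log2 ratio, which the main calls here did not use. With that limit, neither Ckap2 nor Cdc20 was called in Tag-seq. The numbers of calls differ from the study's in both assays, and in RNA-seq more transcripts were called here in both directions. CPM refer to all counts on genes, log2 ratios use a pseudocount of 0.5 counts, and intervals are at 95% (Poisson, or Clopper-Pearson for shares). A count of 0 cells was given the limit of 3 cells. The block fits were made with DESeq2 1.42.0 and edgeR 4.0.16 (adjusted p of 0.05), and DESeq2 left 656 transcripts without an adjusted p. Cells were handled with scipy 1.17.1, numpy 2.4.6 and pandas 2.3.3 under Python 3.11.15, and figures with matplotlib 3.10.9. All cells entered, and doublets were not removed. p-values measure only the spread between these libraries. On simulated data with 200 transcripts changed 8-fold, the calls recovered 100% in Tag-seq (11861 transcripts) and in RNA-seq (16681), and both block fits recovered 100% (10889). False calls were 0 in Tag-seq, 2 in RNA-seq, 5 with edgeR and 1 with DESeq2. The changed transcripts were well counted, and in the block fits their change was the same in both assays. The share recovered therefore does not cover smaller changes, low counts or disagreement between assays.

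The genes, lists and motifs were chosen with earlier results of these data known. The text names the 8 genes and up to 3 further genes of each cell cycle list. Of the 10 genes most like the 8, it names those with a symbol and the highest in rank. Some genes of lower rank and some markers are also named. Symbols of 2995 identifiers came from the parts of the study's DE tables held here, whose values were not used. Lists under 80% matched (all cell cycle lists, and the smooth muscle, endothelial, leukocyte, neural and erythroid markers, with 2 of 10, 3 of 8, 1 of 8, 1 of 8 and 3 of 7) got no list value. Cdca2 had no promoter entry.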

Additional observations from a re-analysis of the deposited data

Results flagged for a closer look

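Ckap2, a stabiliser of spindle microtubules, was higher in VMP in Tag-seq and had a log2 ratio of the opposite sign, within counting error of 0, in RNA-seq. In Tag-seq its log2 ratio (VMP over SU) was 1.25, with a 95% counting interval from 1.10 to 1.41, from 1185 and 480 counts. In RNA-seq it was -0.06 (-0.29 to 0.17), from 268 and 386 counts, and 0.15 under scaling by total count, so RNA-seq gave no direction. With 1 library per tissue and assay the difference between the assays was not tested. The single cells gave 0.19 summed over all cells, 0.41 with cells weighted equally, 0.54 without the highest cell of each tissue and -0.17 without VMP cell 38.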

How the results depend on the processing

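No paired analysis was possible because no replicate number links samples of the tissues, with 1 library per tissue in each bulk assay and cell numbers that are chip positions. The only blocking was by assay, in the edgeR and DESeq2 fits to the 4 bulk libraries. Leaving out replicates does not apply for the same reason. In RNA-seq, 5 to 6 genes were higher in SU and 0 higher in VMP under all alternatives. In Tag-seq, the call of Ckap2 (1 gene higher in VMP) went to 0 without the filter on low counts, at q of at least 0.95, and with a further limit of 1.5 on the size of the log2 ratio. Calls higher in SU went from 2 to 0 at q of at least 0.95 and to 1 with that further limit. The direction over both bulk assays was the same with edgeR and DESeq2 for all 8 genes. In single cells, the median share of 20.4% in VMP and 72.7% in SU went to 6.12% and 29.5% at 10 reads, and that of SU to 55.7% after thinning. Cells with 4 or more genes, 12.2% in VMP and 87.9% in SU, were 36.7% and 95.5% at 3 or more genes, 65.2% in SU at 5 or more, 4.08% and 22.7% at 10 reads per gene, and 59.6% in SU after thinning. The median summed log2 ratio of -0.98 was -1.11 with spike-in scaling and -1.38 with cells weighted equally. The ratio of Cenpa, 0.58, turned to -0.46 with cells weighted equally. Leaving out single cells was chosen after seeing the data. The median was then -2.96 without the highest cell of each gene in each tissue and -2.52 without VMP cell 38, Cenpa turned to -5.70 and -6.42, both with 1 VMP read left, and Ckap2 turned to -0.17 without VMP cell 38. Reads per cell without molecular identifiers limit what a share at 1 read can show.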

Other observations

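The 8 genes did not always come together in a cell. For example, G2e3 had 100 or more reads in 9 SU cells and 2 VMP cells, some of which held little else. VMP cell 5 had 276 reads of G2e3 and 1 read of any other gene of the 8, that of Ckap2, in a cell with 301991 counts, 4075 genes and 33% spike-in. SU cell 15 had 159 reads of G2e3 and none of the other 7. In contrast, SU cell 34 had 905 reads of G2e3 beside 1171 of Cenpf, 242 of Cdca2 and 191 of Kif20b.

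Other cells held many reads of some of the genes and few or none of others. SU cell 93 had 2405 reads of Cenpf and 1474 of Ckap2, the highest of any cell for both, beside 227 of Kif20b, 1 of Kif23 and none of Cdc20. SU cell 95 had 940 reads of Kif23 and 728 of Cenpf, beside 10 of Ckap2 and none of Kif20b or Cdc20. SU cell 67 had 492 reads of Cdc20, the most of any SU cell, beside 20 of Cenpf and none of Kif23. SU cell 33 had 612 reads of Kif20b beside 81 of Cenpf, 2 of Kif23 and none of Ckap2. These cells were chosen after their values were seen, and each is 1 cell without a repeat.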
